A study of Mus musculus with 18 samples.

Results

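Deoxynucleotide synthesis was followed through 9 genes, Rrm1, Rrm2, Tyms, Tk1, Dut, Dck, Dctd, Ctps and Shmt1, in mouse bone marrow-derived macrophages (BMDMs) exposed to lipopolysaccharide (LPS) and carboplatin. The list was chosen with earlier results of these data known, though no measured value entered its rule. Its genes were named as enzymes that make or recycle the building blocks of DNA. They were 9 of the 22852 gene symbols counted by RNA sequencing, and 8 of them were among the 11305 genes with enough reads to be tested. Dctd, with 0 to 18 reads per library, was not tested. Shmt1, with 0 to 21 reads, passed the filter through 7 of 18 libraries that included all 3 unstimulated ones, and Tk1 passed through 12 of 18.

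Deoxynucleoside triphosphates (dNTPs) are made de novo when ribonucleotide reductase removes an oxygen from the sugar of a ribonucleotide. Thymidine nucleotides need a further route, in which dUTP is cleaved to dUMP and then methylated with a folate-borne carbon, while salvage kinases return free deoxynucleosides to the pool. Most of these enzymes are best known from cells in S phase, which copy their genome, whereas resting macrophages hold low dNTP levels kept down by the hydrolase SAMHD1.

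The study asked how carboplatin, a platinum drug that crosslinks DNA, changes LPS tolerance, the muted response of macrophages to a second dose of LPS. Marrow of female C57BL/6 mice was cultured for 7 days in medium with 20% of L929-conditioned medium, a source of the macrophage growth factor M-CSF, and 6 groups of 3 libraries were sequenced. Unstimulated BMDMs received nothing. LPS-primed BMDMs received 100 ng/ml of LPS for 24 h, and LPS-tolerant BMDMs received the same. By the study's methods, the medium of LPS-tolerant BMDMs was then replaced with fresh medium holding 10 ng/ml of LPS for 3 h. Carboplatin at 25 µM was given in a further LPS-primed and a further LPS-tolerant group, 1 h before priming by the study's methods, whereas the labels name LPS first. LPS-stimulated (10 ng/ml) BMDMs received only the low dose for 3 h. There was no group with carboplatin and no LPS, and no primed group given fresh medium alone. Tolerant against primed therefore holds the second dose, the change of medium and 3 h more of culture, which cannot be told apart. The sources used here do not say whether equal replicate numbers shared a mouse.

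Libraries held 6869667 to 14708099 counted read pairs (median 8986463). All 9 macrophage markers were detected in every group. Their summed level was 16300 to 18200 CPM (counts scaled to an equal library total) in unstimulated libraries and 15300 to 19300 CPM after LPS at 10 ng/ml. It was 29600 to 30000 CPM in primed and 26900 to 32800 CPM in tolerant libraries, and 23800 to 30500 CPM with carboplatin. The B cell list, led by Ighm, summed to 27.5 to 166 CPM in unstimulated libraries, with Ms4a1 at 0. It summed to 7.43 to 29.1 CPM after LPS at 10 ng/ml and to at most 0.987 CPM in the other groups. The neutrophil list, led by S100a8 with Ly6g and Mpo at 0 throughout, summed to 0.781 to 1.34 CPM in unstimulated libraries and to 4.31 to 57.7 CPM in those with LPS. The fibroblast list (4 genes, led by Dcn after LPS) summed to 0 to 0.391 CPM in unstimulated libraries, with Col1a2 and Col3a1 at 0. It summed to 2.96 to 7.35 CPM in primed, 4.90 to 8.07 CPM in tolerant and 0 to 2.44 CPM in singly stimulated libraries, and to 0.986 to 7.37 CPM with carboplatin. The dendritic cell list summed to at most 1.27 CPM, and T cell, mast cell and erythroid lists summed to at most 0.435 CPM. These are bulk libraries, so fewer cells that carry a transcript and less transcript per cell cannot be told apart.

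The 9 genes lie apart in the GRCm39 build. Rrm1 is at chr7:102090890-102119709 and Rrm2 at chr12:24757811-24764145, both on the plus strand. Tyms is at chr5:30263198-30278633 (minus), Dut at chr2:125089110-125100966 (plus), Dctd at chr8:48552127-48606268 (plus) and Shmt1 at chr11:60661185-60708167 (minus). Tk1 is at chr11:117702770-117717042 (minus), Dck at chr5:88912695-88931151 (plus) and Ctps, named Ctps1 in the annotation, at chr4:120395395-120471131 (minus). Counts of Tk1 and Ctps carry an added uncertainty. Exons of Tk1 overlap exons of Afmid and Syngr2 on the other strand, and a second genomic match to Tk1 (Gm6091 on chromosome 8) covers 83% of its transcript at 96% identity. Ctps has such a match in Gm16465 on chromosome X, over 87.1% of its transcript at 92.4% identity. Rrm2, Dctd, Ctps and Shmt1 also overlap exons on the other strand, and the strand setting of the counting is not given in the sources used here.

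Promoter windows are shown for 4 genes on which the results turn. These are the reductase subunits Rrm1 and Rrm2, Tk1, called lower by edgeR in the mean of both carboplatin comparisons, and the LPS-raised Ctps. Each holds the 250 bases before the start of the gene in RefSeq on the GRCm38.p6 build, which differs from the build of the counts. Capitals mark matches on either strand to CCAAT and to a 7-letter E2F core, which is any of the E2F sites TTTCCCGC, TTTCGCGC, TTTGCCGC and TTTGGCGC without its first T. The core was chosen after the windows had been read. The windows are chr7:102441445-102441694 (plus), chr12:24708004-24708253 (plus), chr11:117826015-117826264 (minus) and chr4:120570277-120570526 (minus).
Rrm1: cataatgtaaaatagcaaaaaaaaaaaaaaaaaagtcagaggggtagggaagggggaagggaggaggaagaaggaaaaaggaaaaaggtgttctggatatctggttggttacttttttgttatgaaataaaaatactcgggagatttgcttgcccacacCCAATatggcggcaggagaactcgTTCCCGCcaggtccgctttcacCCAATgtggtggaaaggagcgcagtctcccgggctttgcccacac
Rrm2: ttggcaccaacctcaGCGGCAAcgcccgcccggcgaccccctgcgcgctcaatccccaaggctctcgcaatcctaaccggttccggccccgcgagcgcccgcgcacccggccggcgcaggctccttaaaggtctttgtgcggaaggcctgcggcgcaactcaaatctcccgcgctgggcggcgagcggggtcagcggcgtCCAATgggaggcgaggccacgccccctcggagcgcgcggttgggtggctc
Tk1: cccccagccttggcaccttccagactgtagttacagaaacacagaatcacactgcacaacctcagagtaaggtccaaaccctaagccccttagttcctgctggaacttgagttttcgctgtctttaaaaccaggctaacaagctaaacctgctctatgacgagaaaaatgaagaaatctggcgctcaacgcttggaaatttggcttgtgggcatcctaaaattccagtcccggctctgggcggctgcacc
Ctps: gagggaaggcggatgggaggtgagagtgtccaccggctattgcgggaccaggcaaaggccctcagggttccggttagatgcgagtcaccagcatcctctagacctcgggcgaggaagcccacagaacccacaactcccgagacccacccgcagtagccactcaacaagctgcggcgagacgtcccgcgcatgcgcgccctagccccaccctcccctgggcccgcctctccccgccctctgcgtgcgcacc
Rrm1 held 2 CCAAT matches, at 91 to 87 and 45 to 41 bases before the start, and a core match at 67 to 61 bases. Rrm2 held CCAAT at 50 to 46 bases and a core match at 235 to 229 bases. The printed windows of Tk1 and Ctps held neither. A second RefSeq window of Ctps, at chr4:120569460-120569709 (minus), held a core match at 234 to 228 bases before its start. CCAAT occurred in 33.9% of all 32841 RefSeq windows of this length and the 7-letter core in 7.89%. The full 8-letter E2F site (1.86% of windows) was in none of the windows of the 9 genes. A CACGTG E-box (6.02%) was in that of Tyms, and TTTGAA or its complement (16%) in that of Dck.

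After 24 h of LPS at 100 ng/ml, 5 of the 8 tested genes fell against unstimulated BMDMs and none rose. Across all tested genes, 13.1% fell and 12.1% rose in that comparison (2847 of 11305 called, 25.2%). The genes that fell were both reductase subunits (Rrm1, Rrm2), the thymidylate enzymes Tyms and Dut, and thymidine kinase Tk1, at levels 3.15-fold to 5.33-fold lower. Dck, Ctps and Shmt1 did not pass the test. A gene was called at a Benjamini-Hochberg adjusted p under 0.05 in edgeR's quasi-likelihood test, fitted once to all 18 libraries and adjusted over all 11305 genes. The median log2FC over the 8 genes was -1.72, beside -0.02 over all tested genes. The count dropped to 2 without unstimulated replicate 1 or LPS-primed replicate 3 and to 3 without LPS-primed replicate 1. With the study's own limits (absolute log2FC over 2 and adjusted p under 0.05), 2 genes were called lower, Rrm2 and Tk1, where 4.07% of all genes were lower and 3.41% higher.

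A single dose of 10 ng/ml for 3 h gave 4 lower genes (Rrm1, Rrm2, Tk1, Dck) and 1 higher (Ctps) among the 8. Here 26.9% of all tested genes fell and 24.3% rose, so the share of the 8 genes called (5 of 8) stood near the 51.2% called overall. The median log2FC was -1.05 over the 8 genes and -0.09 over all genes. Leaving out LPS-stimulated (10 ng/ml) replicate 1 raised the count to 7, and leaving out replicate 2 or 3 of that group lowered it to 3 or 1. It was also 1 without unstimulated replicate 1. Ctps stayed called in each of these fits, and with the study's limits it was the 1 gene called (5.54% of all genes lower, 6.42% higher).

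LPS-tolerant BMDMs, set against those given 10 ng/ml once, had lower Rrm1, Tyms and Ctps and no higher gene. Among all tested genes 18.3% fell and 16.2% rose (34.5% in either direction). The count was 1, Ctps alone, without LPS-tolerant replicate 1, without LPS-tolerant replicate 3, or without LPS-stimulated (10 ng/ml) replicate 1. With the study's limits none of the 8 was called there (5.07% of all genes lower, 2.97% higher). None of the 8 genes passed edgeR's test between LPS-tolerant and LPS-primed BMDMs, where 2.71% of all genes were lower and 3.60% higher (6.31% called) and 2385 genes, Dck and Ctps among them, had an unadjusted p under 0.05. DESeq2 called 1 of the 8, Dck, in that comparison. The plot of normalized read counts by group shows all 9 genes in every library.

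**Figure D1:**
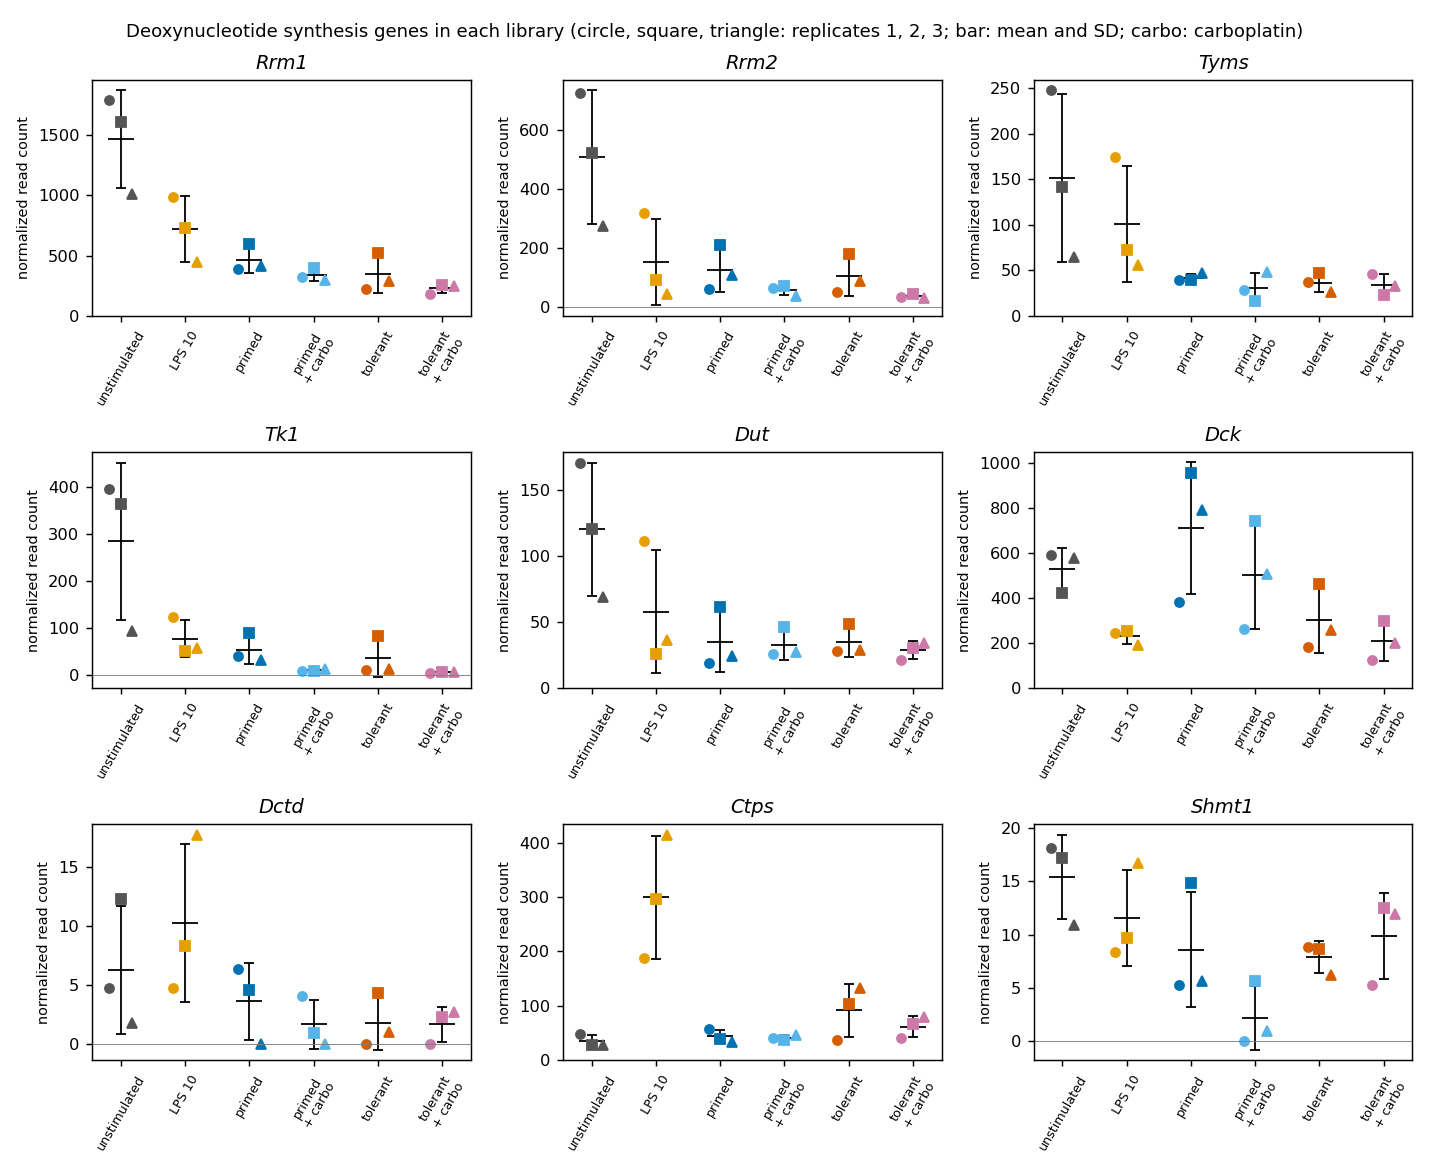
Normalized read count (vertical axis, from 0, one panel per gene) of the 9 genes in the 6 groups of 3 libraries; LPS 10 is the single dose of 10 ng/ml. Symbols are replicates, black bars the mean and SD. Unstimulated libraries are highest for Rrm1, while Ctps is highest after the single low dose, between 187 and 414.

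Ribonucleotide reductase is built from the large catalytic subunit RRM1 and the small subunit RRM2, which carries the radical that starts the reaction. Normalized read counts, which are counts scaled to the mean effective library size, were 1784, 1602 and 1012 for Rrm1 in unstimulated replicates 1 to 3. They were 388, 596 and 413 in LPS-primed, 224, 519 and 291 in LPS-tolerant and 987, 729 and 444 in LPS-stimulated (10 ng/ml) BMDMs. Every LPS-treated library lay below every unstimulated one. Rrm1 fell by 1.66 on the log2 scale after priming (SE 0.32, adjusted p = 0.000903), and all 6 fits that left out 1 library kept the call. It was 2.04-fold lower after the single dose (log2FC -1.03, SE 0.31, adjusted p = 0.0114). That adjusted p rose to 0.0519 without unstimulated replicate 1 and to 0.0645 without LPS-stimulated (10 ng/ml) replicate 3. LPS-tolerant BMDMs had a further lower level than those given the low dose alone (log2FC -1.06, SE 0.32, adjusted p = 0.0155), although the ranges overlapped. That call was lost without LPS-tolerant replicate 1 (adjusted p = 0.0755) or 3 (0.0657), without LPS-stimulated (10 ng/ml) replicate 1 (0.0833), and in a fit of the compared groups alone (0.0589).

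Rrm2 stood at 727, 521 and 275 in unstimulated BMDMs. Its counts were 60.3, 208.5 and 108 in LPS-primed, 48.1, 179.6 and 86.5 in LPS-tolerant and 319.8, 92.0 and 44.4 in LPS-stimulated (10 ng/ml) BMDMs. Priming gave a level 4.05-fold lower with no overlap (log2FC -2.02, SE 0.61, adjusted p = 0.0212). The adjusted p was 0.0796 without unstimulated replicate 1, 0.0891 without LPS-primed replicate 1 and 0.0763 without LPS-primed replicate 3. After the single dose Rrm2 was 3.38-fold lower (log2FC -1.76, SE 0.60, adjusted p = 0.0224), with replicate 1 of that group inside the unstimulated range. Without unstimulated replicate 1 or LPS-stimulated (10 ng/ml) replicate 2 or 3 its adjusted p lay between 0.0886 and 0.0928. LPS-tolerant BMDMs did not pass against those given the low dose once, with a log2FC of -0.50 and a 95% interval of -1.79 to 0.78.

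The thymidylate branch runs through dUTPase (Dut), which cleaves dUTP to dUMP, deoxycytidylate deaminase (Dctd), a second source of dUMP, and thymidylate synthase (Tyms), which methylates dUMP to dTMP. Serine hydroxymethyltransferase 1 (Shmt1) loads the one-carbon unit onto folate. Dut counts were 170.2, 120.5 and 69.1 in unstimulated, 19.1, 61.5 and 24.4 in LPS-primed, 27.9, 48.4 and 28.8 in LPS-tolerant and 111, 25.6 and 36.5 in LPS-stimulated (10 ng/ml) BMDMs. Primed and tolerant libraries all lay below the unstimulated range, and replicate 1 of the low-dose group lay within it. Dut was 3.44-fold lower after priming (log2FC -1.78, SE 0.53, adjusted p = 0.0191). Its adjusted p ranged from 0.0804 to 0.0849 without unstimulated replicate 1, LPS-primed replicate 1 or LPS-primed replicate 3. After the single dose the log2FC was -1.08 (95% interval -2.16 to -0.0011, adjusted p = 0.0877). That value passed with library size as the only scaling (adjusted p = 0.029), with limma-voom (0.0136) and without LPS-stimulated (10 ng/ml) replicate 1 (log2FC -1.95, adjusted p = 0.00435).

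Tyms counts were 248, 142 and 64.5 in unstimulated libraries and 39.2, 39.9 and 46.9 in LPS-primed ones. In LPS-tolerant BMDMs they were 36.7, 47.5 and 25.7, and after the single low dose 174, 72.6 and 56.2. The primed and tolerant values all lay below those of both other groups. Tyms was 3.59-fold lower after priming (log2FC -1.84, SE 0.50, adjusted p = 0.0106), a call lost without unstimulated replicate 1 (adjusted p = 0.0748). After the low dose alone it did not pass (log2FC -0.59, 95% interval -1.59 to 0.40), except without LPS-stimulated (10 ng/ml) replicate 1 (log2FC -1.22, adjusted p = 0.0457). In LPS-tolerant against singly stimulated BMDMs it was 2.72-fold lower (log2FC -1.44, SE 0.50, adjusted p = 0.0334). Without LPS-stimulated (10 ng/ml) replicate 1 that log2FC was -0.81 (adjusted p = 0.219), and the call was also lost without LPS-tolerant replicate 1 (0.0786), without LPS-tolerant replicate 3 (0.121) and with limma-voom (0.102).

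Dctd and Shmt1 were near the limit of detection. Dctd had 5, 15 and 2 reads in unstimulated, 6, 4 and 0 in LPS-primed, 0, 5 and 1 in LPS-tolerant and 4, 12 and 18 in LPS-stimulated (10 ng/ml) libraries. A count of 0 allows up to 3 reads at this depth, by counting error alone. In normalized counts the tolerant libraries (0 to 4.32) lay below those given the low dose once (4.77 to 17.8), a difference that was not tested. In reads these groups overlapped, with 5 in LPS-tolerant replicate 2 and 4 in LPS-stimulated (10 ng/ml) replicate 1. Normalized ranges overlapped for primed against unstimulated, the low dose against unstimulated and tolerant against primed BMDMs. Shmt1 had 19, 21 and 12 reads in unstimulated, 5, 13 and 6 in LPS-primed, 7, 10 and 6 in LPS-tolerant and 7, 14 and 17 in LPS-stimulated (10 ng/ml) libraries. In normalized counts, replicate 2 of the primed group (14.8) reached into the unstimulated range (10.9 to 18.2), whereas the tolerant group (6.18 to 8.86) stayed under it. Its log2FC was -0.86 after priming (95% interval -2.12 to 0.41, adjusted p = 0.337) and -0.41 after the low dose (-1.62 to 0.81, adjusted p = 0.58).

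Salvage is served by thymidine kinase 1 (Tk1), which phosphorylates thymidine in the cytosol, and deoxycytidine kinase (Dck), which accepts deoxycytidine and the purine deoxynucleosides. Tk1 had normalized counts of 397, 365 and 92.7 in unstimulated BMDMs and 40.2, 88.9 and 31.9 in LPS-primed ones. LPS-tolerant libraries stood at 11.4, 83.8 and 13.4, and LPS-stimulated (10 ng/ml) ones at 123, 51.9 and 57.2. Unstimulated replicate 3 was the low library of its group and LPS-tolerant replicate 2 the high one of its own. Tk1 was 5.33-fold lower after priming without overlap, the widest fall of the 8 genes (log2FC -2.41, SE 0.64, adjusted p = 0.00975). The adjusted p was 0.0519 without LPS-primed replicate 3. After the single dose it was 3.72-fold lower (log2FC -1.89, SE 0.62, adjusted p = 0.0177), a call kept in 2 of 6 fits that left out 1 library. The other 4 fits, without unstimulated replicate 1 or 2 or LPS-stimulated (10 ng/ml) replicate 2 or 3, gave adjusted p from 0.0627 to 0.0743. Against the low dose once, LPS-tolerant BMDMs gave a log2FC of -1.03 (adjusted p = 0.238), which became -2.61 (adjusted p = 0.00685) without LPS-tolerant replicate 2.

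Dck took another course, with its highest mean in LPS-primed BMDMs. Its counts were 589.8, 425 and 579 in unstimulated, 384, 955 and 793 in LPS-primed, 181, 462 and 260.5 in LPS-tolerant and 247, 254 and 193 in LPS-stimulated (10 ng/ml) libraries. Priming left it within overlapping ranges (log2FC 0.42, 95% interval -0.42 to 1.26, adjusted p = 0.497). The low dose alone gave a 2.29-fold lower level with no overlap (log2FC -1.20, SE 0.41, adjusted p = 0.0211). That call was lost without unstimulated replicate 1 (adjusted p = 0.0563), unstimulated replicate 3 (0.0561) or LPS-stimulated (10 ng/ml) replicate 3 (0.0768). LPS-tolerant BMDMs had lower Dck than LPS-primed ones of the same replicate number in 3 of 3 pairs, although the ranges overlapped. With a log2FC of -1.23 (SE 0.40) the adjusted p was 0.0816, whereas a block for replicate number gave -1.24 and an adjusted p of 0.00683. DESeq2 gave an adjusted p of 0.0296, and leaving out LPS-primed replicate 1 or LPS-tolerant replicate 2 gave 0.0406 or 0.0421.

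CTP synthase (Ctps) makes CTP from UTP and so feeds cytidine nucleotides to RNA, phospholipids and, through the reductase, dCTP. It was the gene that rose. Its counts were 47.8, 28.7 and 29.1 in unstimulated, 58.2, 39.9 and 33.8 in LPS-primed, 38.0, 103.6 and 134 in LPS-tolerant and 187, 297 and 414 in LPS-stimulated (10 ng/ml) BMDMs. All 3 libraries given the low dose alone lay above all others. Ctps was 8.52-fold higher than in unstimulated BMDMs (log2FC 3.09, SE 0.42, adjusted p = 1.13e-05), and the log2FC lay between 2.79 and 3.39 when any 1 library was left out. After 24 h of priming the log2FC was 0.32 (95% interval -0.56 to 1.21, adjusted p = 0.638). LPS-tolerant BMDMs had 3.24-fold less Ctps than singly stimulated ones (log2FC -1.70, SE 0.39, adjusted p = 0.00251), with no overlap. Against priming alone the second dose gave a log2FC of 1.07 (SE 0.41, adjusted p = 0.132), where LPS-tolerant replicate 1 was not above its primed counterpart and the other 2 were. Without that replicate the log2FC was 1.43 (adjusted p = 0.0334).

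The response to the second dose was tolerant against primed, change of medium included, and that to the first was the low dose against none. The second minus the first was tested as an interaction. Ctps was the gene of the 8 called, with a difference of -2.02 on the log2 scale (SE 0.57, adjusted p = 0.0157), from mean responses of 35.2 to 299 at the first dose and 44.0 to 91.8 at the second. In that comparison 13.3% of all tested genes were lower and 10.5% higher (23.8% in all). The call held in all 12 fits that left out 1 library, with a log2 difference of -2.38 to -1.67. The difference for Rrm2 was 1.52 (95% interval -0.28 to 3.31, adjusted p = 0.228) and for Dut 1.10 (-0.47 to 2.68, adjusted p = 0.322). Without LPS-stimulated (10 ng/ml) replicate 1 both passed, Rrm2 at 2.64 (adjusted p = 0.0165) and Dut at 1.98 (adjusted p = 0.0388). The plot of log2FC by comparison sets the 8 tested genes side by side.

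**Figure D2:**
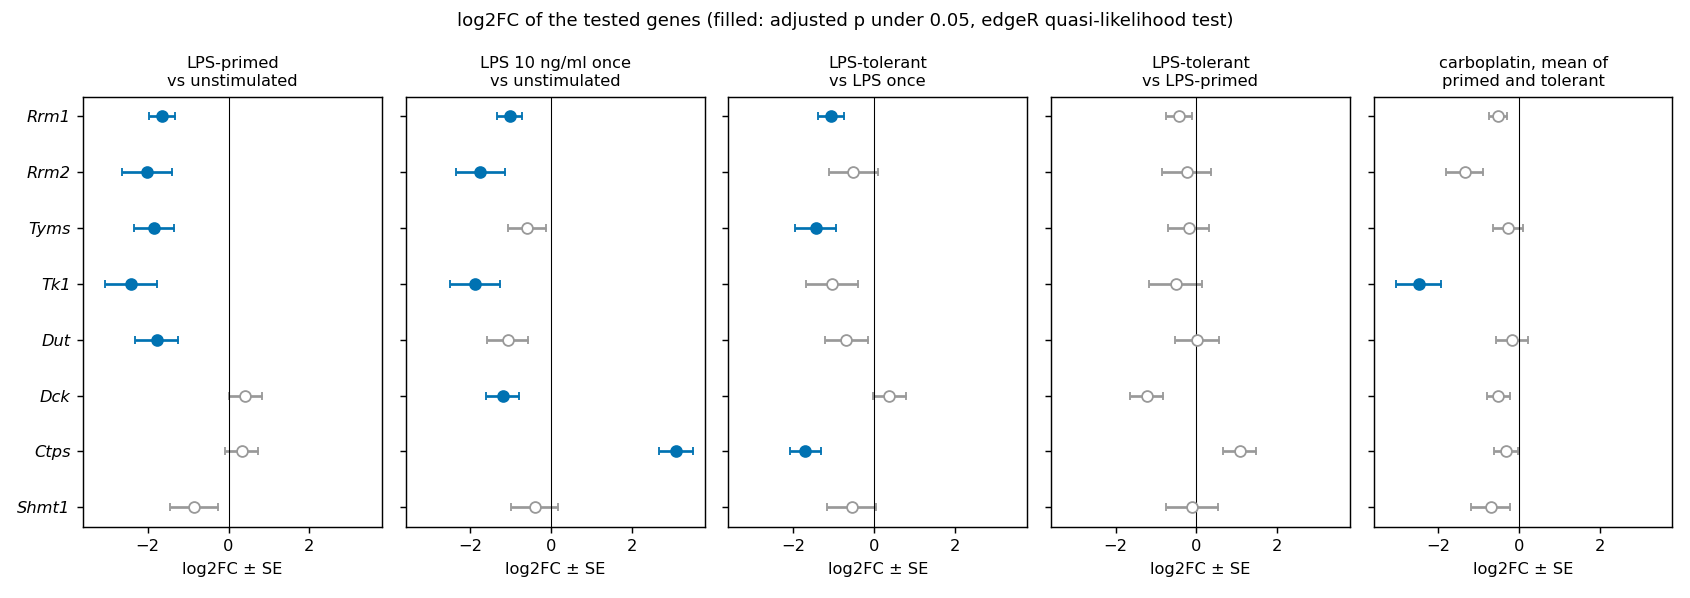
log2FC (horizontal axis, with its SE) of the 8 tested genes in 4 LPS comparisons and in the mean carboplatin comparison. Filled points have an adjusted p under 0.05. The 5 genes called in LPS-primed BMDMs lie between -2.41 and -1.66, Ctps stands at 3.09 after the single dose, and Tk1 is the filled point for carboplatin.

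Carboplatin was compared within LPS-primed and within LPS-tolerant BMDMs. None of the 8 genes passed in either state by edgeR, where 0.372% of all genes did in primed and 0.425% in tolerant cells, with 776 and 761 genes at an unadjusted p under 0.05. Those included 2 of the 8 in each state, Tk1 and Shmt1 in primed and Tk1 and Rrm2 in tolerant cells. DESeq2 called 1 of the 8, Tk1, in each state. In the mean of both states, which shares its libraries with the separate comparisons, 1 of 8 fell, Tk1, and none rose. There 1.88% of all tested genes fell and 0.115% rose (1.99% called). All 8 log2FC values in the mean comparison were below 0, with a median of -0.52 beside 0.01 over all genes. The difference between the states was called for none of the 8 and for 0 of all tested genes, with 131, Shmt1 among them, at an unadjusted p under 0.05. DESeq2 also called none of the 8 there.

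Tk1 counts with carboplatin were 9.45, 8.46 and 12.1 in LPS-primed and 3.93, 6.83 and 7.35 in LPS-tolerant BMDMs, or 3 to 12 reads. Of the libraries through which Tk1 passed the filter, 1 was primed with carboplatin and 0 were tolerant with carboplatin. Both carboplatin groups lay wholly below their counterparts without the drug, and Tk1 was lower in 3 of 3 pairs of replicate number in each state. How many of all tested genes separated so, or fell in all pairs like Rrm1 and Dck below, was not counted. In primed cells the log2FC was -2.40 (SE 0.76) at an adjusted p of 0.341, or 0.0499 by DESeq2. In tolerant cells it was -2.57 (SE 0.83) at an adjusted p of 0.313, or 0.0364 by DESeq2. In the mean of both, Tk1 was 5.60-fold lower (log2FC -2.49, SE 0.56, adjusted p = 0.0272). With replicate number as a block its adjusted p was 0.00749 in the mean, 0.0907 in primed and 0.133 in tolerant cells. Without the block, the call in the mean was kept in 4 of 12 fits that left out 1 library. It was lost without LPS-primed replicate 2 (adjusted p = 0.083), without LPS-tolerant replicate 2 (log2FC -1.70, adjusted p = 0.141) and without any 1 of the 6 carboplatin libraries (0.0566 to 0.076). limma-voom gave -2.11 (adjusted p = 0.349). The difference in Tk1 between the states was -0.17, with a 95% interval of -2.52 to 2.17.

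Rrm2 counts with carboplatin were 63.5, 71.4 and 36.2 in LPS-primed and 34.1, 44.4 and 30.3 in LPS-tolerant BMDMs. In the tolerant state these lay below all 3 libraries without the drug, and in the primed state replicate 1 did not decrease. Its log2FC had a 95% interval of -2.48 to 0.21 in primed and of -2.94 to -0.15 (adjusted p = 0.669) in tolerant cells. In the mean of both it was -1.34 (SE 0.46) at an adjusted p of 0.194, or 0.0476 by DESeq2 and 0.0525 with replicate number as a block. Its partner Rrm1 had counts of 319, 395 and 299.9 in primed and 181, 256 and 249 in tolerant cells with carboplatin, lower than the same replicate number without it in all 6 pairs. Its mean log2FC was -0.53 (SE 0.23, adjusted p = 0.347). The plot of paired counts shows Tk1 and Rrm2 in each replicate.

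**Figure D3:**
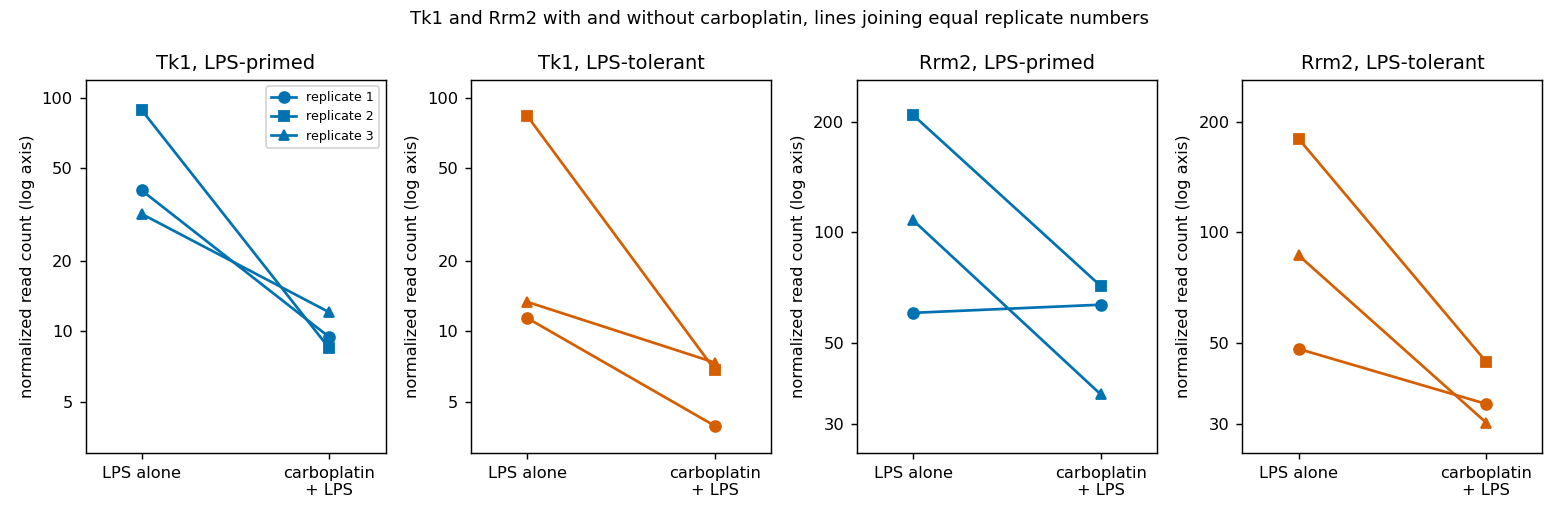
Normalized read counts (log axis) of Tk1 and Rrm2 with and without carboplatin in LPS-primed and LPS-tolerant BMDMs, lines joining libraries of equal replicate number. Tk1 lines all slope down, from 83.8 to 6.83 in LPS-tolerant replicate 2 and from 13.4 to 7.35 in replicate 3. For Rrm2 the line of LPS-primed replicate 1 runs from 60.3 to 63.5.

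No other gene of the 9 was called for carboplatin by edgeR. Dck was lower in all 6 pairs of replicate number, at 261, 742.5 and 506 in primed and 127, 297 and 199 in tolerant cells with the drug (mean log2FC -0.52, 95% interval -1.12 to 0.09). The intervals of the mean log2FC were -1.06 to 0.50 for Tyms and -0.93 to 0.29 for Ctps, and that log2FC was -0.18 (SE 0.39) for Dut. Tyms stood at 28.4, 16.9 and 48.3 in primed and 45.9, 22.8 and 33.1 in tolerant cells with carboplatin. Dut stood at 25.7, 46.0 and 27.2, and at 21.0, 30.7 and 34.0. Ctps stood at 40.5, 37.6 and 46.3, and at 40.7, 66.0 and 79.9. Shmt1 had 0, 6 and 1 reads in primed and 4, 11 and 13 in tolerant cells with the drug, and Dctd 0 to 3 reads in both. The log2FC of Shmt1 was -1.75 in primed cells (95% interval -3.33 to -0.17, adjusted p = 0.623), where it was lower in 3 of 3 pairs, 0.35 in tolerant cells (-0.98 to 1.68) and -0.70 in the mean (-1.74 to 0.33, adjusted p = 0.658). The log2 difference of the carboplatin effect between the states was 2.10 for Shmt1 (95% interval 0.03 to 4.17, adjusted p = 1), on these few reads.

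Proliferation markers (Mki67, Top2a, Pcna, Mcm2, Ccna2, Ccnb1, Cdk1 and Birc5) moved with some of these results and not with others. Priming lowered 7 of the 8 markers (median log2FC -2.82; 8 with replicate number as a block), and 6 of 8 were lower in LPS-tolerant than in singly stimulated BMDMs (median -2.55). After the single low dose, where Rrm1, Rrm2 and Tk1 were called lower, edgeR called 0 of 8 markers (2 at an unadjusted p under 0.05, and 2 called lower with replicate number as a block) and the median was -0.44. Their summed normalized count was 11020 to 18670 in unstimulated, 8324 to 17170 after the low dose, 2618 to 3988 in primed and 3269 to 6192 in tolerant libraries. Pcna held much of the sum in primed and tolerant libraries, with group means of 1425 and 2814. Between tolerant and primed BMDMs edgeR called 1 of 8 markers higher and 0 lower (median log2FC -0.10), beside 3.60% and 2.71% of all tested genes. With carboplatin, 5 of 8 were lower in the mean of both states (median -1.24), or 6 with the block. In the single states 0 were called in primed and 1 in tolerant cells, against 2 and 4 with the block. The sum was 2088 to 2875 in primed and 3046 to 4009 in tolerant cells, of which Pcna had group means of 1439 and 2529. The B cell list given above was also higher in unstimulated than in primed libraries. The macrophage, neutrophil and fibroblast lists were higher in primed ones, with no overlap in either direction. After the low dose, the B cell list (7.43 to 29.1 CPM) overlapped the unstimulated range (27.5 to 166 CPM). The part of any of these in the results was not tested.

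Most libraries deviated from their group mean in the same direction for both lists. The mean log2 deviation of the 8 tested genes from their group means was 0.68 in LPS-tolerant replicate 2 and -0.60 in unstimulated replicate 3, and that of the markers was 0.73 and -0.55. In 14 of 18 libraries the sign of both deviations was the same. Deviations within a group balance out, so these signs are not independent. LPS-stimulated (10 ng/ml) replicate 2 was among the 4 exceptions, at -0.21 for the 8 genes and 0.30 for the markers. Across the 18 libraries, which share their groups, Pearson's r of log2 CPM was 0.93 between Rrm1 and Rrm2, 0.94 between Rrm1 and Tk1 and 0.88 between Rrm2 and Dut. After the group means were taken out it was 0.90, 0.84 and 0.83. Tyms was less close to Rrm1 (0.82, and 0.43 within groups), and Ctps had an r of 0.02 with Rrm1 and -0.45 with Dck.

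**Figure D4:**
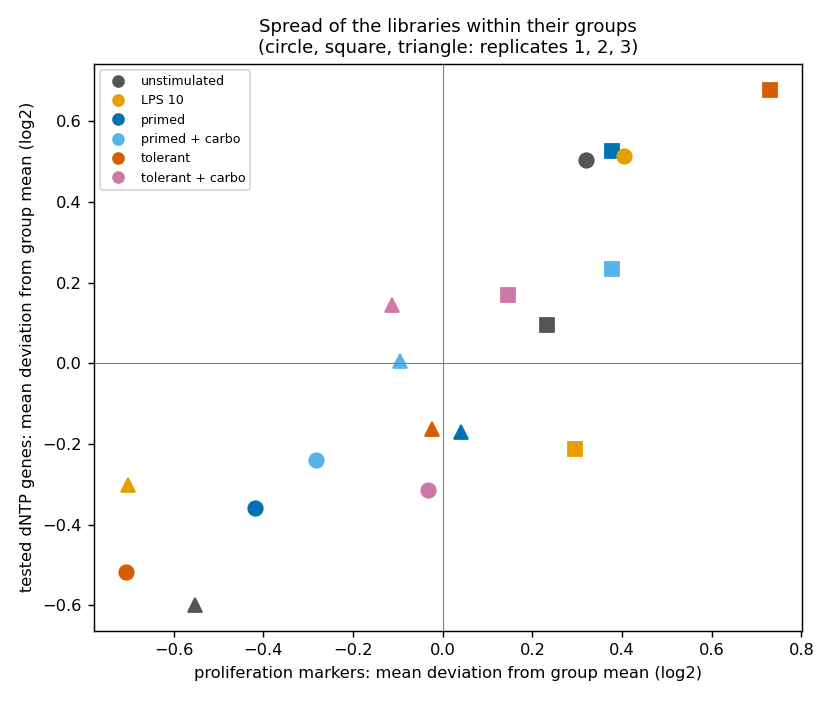
Mean log2 deviation from the group mean of the 8 tested genes (vertical) against that of the 8 proliferation markers (horizontal), 1 point per library. LPS-tolerant replicate 2 is at the upper right (0.73, 0.68), and unstimulated replicate 3 is at the lower left (-0.55, -0.60).

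Genes whose log2 CPM ran most like each member over the 18 libraries were listed as a description. For Rrm1 they were Clspn, Ncapd2 and Asf1b (r = 0.97 each), for Tk1 Clspn, Pclaf and Asf1b (0.95 to 0.96) and for Rrm2 Rfc5, Prim1 and Mcm6 (0.94 to 0.95). Clspn encodes claspin, a replication checkpoint adaptor, Rfc5 and Prim1 a clamp loader subunit and a primase subunit, and Mcm6 a subunit of the replicative helicase. Dut ran with Ankdd1a, Mcm3 and Mcm6 (0.89 to 0.93) and Tyms with Selenoh, Gsn and Mgst3 (0.91 to 0.93). Dck was closest to Ddx60, Clec4a3 and Phf20 (0.89 to 0.93), of which Ddx60 is an interferon-induced helicase. Ctps was closest to Fam241a, Polr1b and Pum3 (0.95 to 0.97), Polr1b being a subunit of RNA polymerase I. Shmt1 had no match above 0.83, with Frmd4a, Siah1b and Qdpr leading.

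Of 12 other enzymes that set dNTP levels, 11 were tested (all but Cda), and edgeR called none after priming (1 at an unadjusted p under 0.05), 4 lower after the single dose, and 1 lower with 2 higher in tolerant against singly stimulated BMDMs. With replicate number as a block these counts were 1 lower and 2 higher after priming, 6 lower and 1 higher after the single dose, and 1 lower and 4 higher in tolerant cells. Across all tested genes, edgeR without the block called 25.2% after priming, 51.2% after the single dose and 34.5% in tolerant against singly stimulated BMDMs. Rrm2b, the reductase subunit used outside S phase, had a log2FC of -0.07 after priming (95% interval -1.21 to 1.07) and was not called in any of the 9 comparisons without the block. With the block it was called higher in tolerant than in singly stimulated BMDMs (log2FC 1.09, adjusted p = 0.00911, against 1.13 and 0.121 without it), and it was higher in 3 of 3 pairs. Samhd1, the dNTP hydrolase, was lower after the low dose (log2FC -1.09, SE 0.22, adjusted p = 0.000606) and lower in tolerant than in primed cells (-0.81, adjusted p = 0.0374). Against the low dose once it was higher in tolerant cells (0.59, adjusted p = 0.0472). The mitochondrial kinases Dguok and Tk2, which phosphorylate deoxyguanosine and thymidine, were lower after the low dose (log2FC -1.91 and -1.39), and in tolerant cells Dguok was 0.82 above that group. Cmpk2, a mitochondrial UMP/CMP kinase known as an interferon-induced gene, was lower in tolerant than in singly stimulated BMDMs (log2FC -2.16, SE 0.46, adjusted p = 0.00143). None of the 11 was called for carboplatin, and 0 had an unadjusted p under 0.05 in either state.

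Folate enzymes, which supply the carbon for Tyms, were split. Priming raised 4 of 10 (Mthfd1l at log2FC 2.72, Mthfd2 at 1.66, Ggh at 1.00 leading) and lowered Shmt2 (-0.70), the mitochondrial counterpart of Shmt1, or 2 of 10 with replicate number as a block. In the mean of both carboplatin comparisons 1 of 10 fell, Mthfd1l (log2FC -0.80, SE 0.15, adjusted p = 0.00732), or 2 with the block. Mthfd1l was called lower in each carboplatin state with the block (adjusted p = 0.0121 in primed and 0.0129 in tolerant cells) and in neither without it (0.171 and 0.152). In de novo pyrimidine synthesis, the supply route of Ctps, the low dose raised Cad (log2FC 0.92) and lowered Dhodh (-0.98), Umps (-0.71) and the paralog Ctps2 (-0.54), whereas after priming edgeR called none of the 4 (0 at an unadjusted p under 0.05). The low dose raised 8 of 12 de novo purine enzymes, led by Atic (1.19), Impdh1 (1.18) and Impdh2 (1.00), and lowered Prps2 (-1.22) and Paics (-0.64). Priming raised 1 of the 12, Impdh1 (1.20), and with the block 4 others were called lower. Among all tested genes 12.1% rose and 13.1% fell after priming, and 24.3% rose and 26.9% fell after the low dose. In the carboplatin mean 0.115% rose and 1.88% fell.

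Of 15 tested genes of salvage, transport and breakdown, 3 rose and 2 fell after priming, and 4 rose and 3 fell after the low dose. These counts stood near the shares of all tested genes called, 25.2% after priming and 51.2% after the low dose. Uck2, a uridine-cytidine kinase, rose in both (log2FC 2.63 and 3.32). Upp1, uridine phosphorylase, had at most 3 reads in any unstimulated library and rose in both, to normalized counts of 488, 68.4 and 121 after priming and of 227, 139 and 236 after the low dose. The primed mean rests largely on replicate 1. Hprt and Slc29a1 fell after priming (-0.84 and -0.67), and Nudt1, Nt5m and Nt5c fell after the low dose (-1.77, -1.22 and -0.55). Adk, adenosine kinase, was the gene of the list called for carboplatin, with a mean log2FC of -1.10 (SE 0.18, adjusted p = 0.00233). In the single states it was called with the block (adjusted p = 0.0145 in primed and 0.0181 in tolerant cells) and not without it (0.0804 and 0.09). The plot of log2FC by list shows the spread in both directions of these neighbouring pathways.

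**Figure D5:**
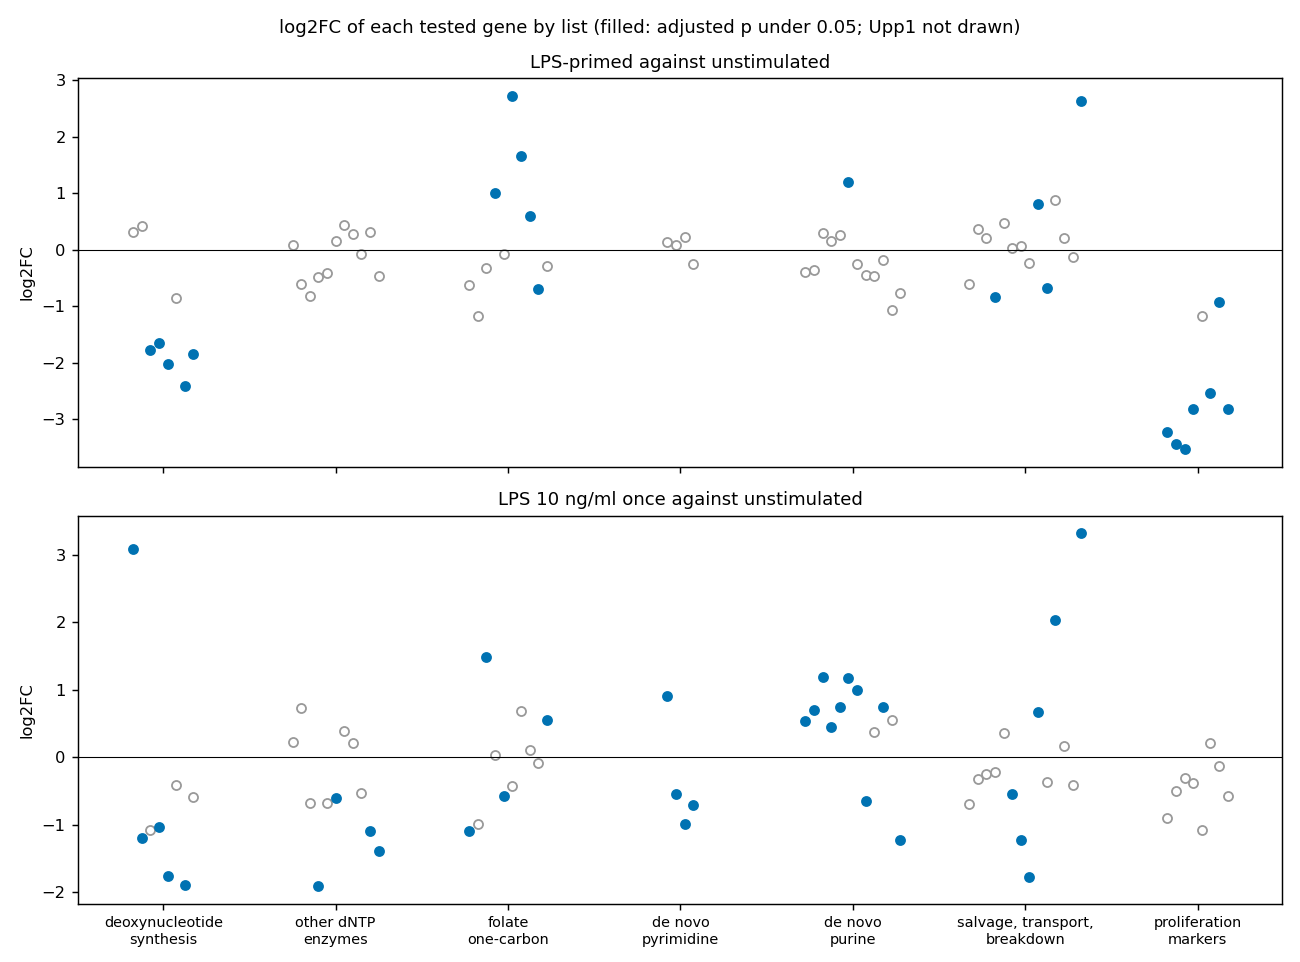
log2FC (vertical axis) of every tested gene in 7 lists, after priming (upper panel) and after the single low dose (lower panel), 1 point per gene, filled where the adjusted p was under 0.05. Upp1 is not drawn because its unstimulated level is at the floor. The 5 filled points of the deoxynucleotide synthesis genes after priming lie between -2.41 and -1.66, and Ctps is the point at 3.09 in the lower panel.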

How the data were processed

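The 18 libraries were made with a TruSeq kit, a stranded mRNA kit by the study's methods and named without strand in the labels, and read as 2 × 150 bp pairs. According to the study's methods and the submitters' processing notes, reads were aligned with HISAT2 to GRCm39 and counted per gene with HTSeq. Their versions, annotation and strand setting are not given in the sources used here. The deposited values are raw read pair counts, and 41.5% to 46.9% of pairs stood in HTSeq's summary lines, which name no gene and were left out. By HTSeq's default, pairs aligned to several places are not counted.

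Genes were filtered with filterByExpr (minimum count 10, minimum total 15), scaled by TMM and tested by quasi-likelihood in edgeR 4.0.16 under R 4.3.3, with 1 mean per group over all 18 libraries and Benjamini-Hochberg adjustment over 11305 genes. Intervals are 95% intervals from the fitted SE. The script was tested on simulated data. Alternatives were DESeq2 1.42.0, limma-voom (limma 3.58.1), other scalings, no filter, the compared groups alone, each library left out, and the study's limits. The study's methods state biological replicates, and p values measure the spread between these libraries. Same-numbered libraries deviated together (r from 0.183 to 0.574 in 8 of 9 comparisons, lowest 0.0631 in the interaction of both doses), so the fit with replicate number as a block is given where it changed a call of the 9 genes, of Rrm2b or of a further list's count given in the text. It is also given for Tk1 and Rrm2 under carboplatin and for the Ctps difference of responses. The main tests and the fits that left out 1 library ignored replicate number.

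All 9 members are named throughout. From each further list the genes with the largest called log2FC are named, up to 3 each way, with Rrm2b, Samhd1 and Cmpk2; one further gene is not reported here. Members and lists were chosen with earlier results of these data known. Promoters came from RefSeq and gene positions from GENCODE. Transcripts were matched to GRCm39 with minimap2 to find copies.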

Additional observations from a re-analysis of the deposited data

Results flagged for a closer look

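The Ctps response differed between the first dose of LPS and the second, which came with a change of medium. The second response minus the first was -2.02 on the log2 scale by an interaction term in edgeR's quasi-likelihood test (SE 0.57, adjusted p = 0.0157). It is listed because the difference itself passed the test, as did 23.8% of all tested genes (13.3% lower). All 3 libraries given the low dose alone were above all 3 unstimulated ones, whereas LPS-tolerant libraries overlapped LPS-primed ones.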

How the results depend on the processing

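Of 499 values of the 8 genes under settings that kept all libraries, 483 kept direction and side of the threshold. DESeq2 called 1 gene in tolerant against primed BMDMs, 1 in each carboplatin comparison and 2 in their mean, where limma-voom called 0. The study's limits called 2 after priming, 1 after the single dose and 0 in tolerant against singly stimulated BMDMs. Signs turned for values that passed no test. With library size alone Dut was -0.072 in tolerant against primed BMDMs and the Dck difference between second and first response was 0.21. With limma-voom, Shmt1 was 0.048 in tolerant against primed, Dut 0.12 under carboplatin in primed cells and the Tk1 carboplatin difference 0.18. Library size alone moved the median log2FC of all genes from -0.02 to -0.26 after priming, -0.09 to -0.43 after the single dose and 0.06 to 0.30 in the difference of responses. The cause was not tested.

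With replicate number as a block, the count of called genes went from 0 to 1 (Dck) in tolerant against primed BMDMs, and the Dck difference of responses turned to 0.012. The block changed no other call of the 8 genes. In the difference of responses same-numbered libraries correlated at 0.0631 to 0.574 (mean 0.307). With the block the Ctps difference there was -2.03 (adjusted p = 0.00524 in edgeR's quasi-likelihood test).

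Leaving out 1 library at a time, the genes called numbered 2 to 5 after priming, 1 to 7 after the single dose, 1 to 4 in tolerant against singly stimulated, 0 to 1 in tolerant against primed, 0 to 0 in each carboplatin comparison and in their difference, 0 to 1 in the carboplatin mean and 1 to 3 in the difference of responses. Signs turned for these log2FC ranges. In tolerant against primed they were -0.89 to 0.33 for Rrm2, -0.44 to 0.011 for Tyms, -2.09 to 0.054 for Tk1, -0.29 to 0.70 for Dut and -0.35 to 0.52 for Shmt1. In tolerant against singly stimulated they were -1.15 to 0.62 for Rrm2, -1.05 to 0.20 for Dut and -0.065 to 0.65 for Dck. Under carboplatin they were -0.39 to 0.61 for Dut and -0.24 to 0.17 for Ctps in primed, -0.39 to 0.12 for Tyms and -0.44 to 0.022 for Dut in tolerant cells and -0.34 to 0.16 for Dut in the mean. The carboplatin difference ran from -0.37 to 0.29 for Rrm1, -0.98 to 0.23 for Rrm2, -0.0079 to 0.77 for Tyms, -0.74 to 1.40 for Tk1, -0.90 to 0.10 for Dut and -0.39 to 0.41 for Dck. The difference of responses ran from -0.15 to 1.03 for Tyms, -0.20 to 1.95 for Tk1 and -0.49 to 0.23 for Dck. Depth limits Dctd, Shmt1 and Tk1 under carboplatin, with at most 21 reads.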
